A study of Mus musculus with 11 samples.

Results

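Inhibitory receptors restrain T cells that have met antigen, and 8 genes of this system were examined in resting and freshly activated mouse T cells with and without cereblon. They are Pdcd1 (PD-1), Ctla4, Btla, Cd160, Lag3 and Havcr2 (TIM-3), which encode receptors, Cd274, which encodes the PD-1 ligand PD-L1, and Tox, which encodes a nuclear factor. Every probe set whose platform annotation names exactly 1 of these genes was taken, which gave 13 of the 45101 probe sets in the table: 4 for Cd160, 3 for Tox and 1 for each of the other 6 genes.

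The study measured gene expression on 11 one-colour Affymetrix arrays, 1 per sample, of splenic T cells; the donor mice were females of 3 to 4 months. Animals were C57BL6 wild type or C57BL6 crbn-/-, called knockout here. Cereblon, the Crbn product, picks substrates for a ubiquitin ligase and is bound by thalidomide and its relatives. Cells were either naive, as the labels call those collected without activation, or activated for 12 hours by 5 µg/ml of plate-bound anti-CD3 together with 1 µg/ml of soluble anti-CD28. Naive cells filled 3 arrays of each genotype, and activated cells 2 wild-type and 3 knockout arrays, all from cells purified by negative magnetic selection and kept in RPMI-10 medium. Arrays of a group are labelled as biological replicates, though no label says which arrays share an animal, and the sources used here do not say which part of Crbn was removed. No group is labelled as cultured for the same time without antibodies, so activation and culture cannot be told apart.

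Signals from the antigen receptor and CD28 start activation, and the same signals switch on brakes. PD-1 binds PD-L1 or PD-L2 and recruits phosphatases that oppose both signals. CTLA-4 competes with CD28 for the ligands CD80 and CD86 and is held at a high level by regulatory T cells. BTLA and CD160 share the ligand HVEM, the product of Tnfrsf14, LAG-3 binds MHC class II, and TIM-3 has galectin-9 among its ligands. TOX is a DNA-binding protein of the HMG-box family that is known for thymic CD4 lineage development and for maintaining exhausted CD8 T cells in chronic infection and tumours.

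The 250 bases before the annotated start of Pdcd1 and Havcr2, which rose after activation, and of Ctla4, which fell, are shown because these windows can be compared with the changes below. They are RefSeq sequences of the build GRCm38.p6, written 5′ to 3′ on the strand of the gene, at chr1:94052554-94052803 (minus strand), chr11:46454681-46454930 (plus strand) and chr1:60908775-60909024 (plus strand). Capitals mark matches on either strand to GGAAA (the core of NFAT sites) or TGANTCA (AP-1), which do not overlap here.
Pdcd1: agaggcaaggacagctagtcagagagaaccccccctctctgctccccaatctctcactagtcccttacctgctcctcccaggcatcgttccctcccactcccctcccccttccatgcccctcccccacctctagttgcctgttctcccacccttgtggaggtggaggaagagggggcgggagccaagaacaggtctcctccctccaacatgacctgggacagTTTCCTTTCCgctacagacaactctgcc
Havcr2: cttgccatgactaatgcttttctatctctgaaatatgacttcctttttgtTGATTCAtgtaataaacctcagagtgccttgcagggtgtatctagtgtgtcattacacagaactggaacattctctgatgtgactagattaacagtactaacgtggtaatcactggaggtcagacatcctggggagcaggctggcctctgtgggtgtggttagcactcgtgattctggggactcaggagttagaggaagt
Ctla4: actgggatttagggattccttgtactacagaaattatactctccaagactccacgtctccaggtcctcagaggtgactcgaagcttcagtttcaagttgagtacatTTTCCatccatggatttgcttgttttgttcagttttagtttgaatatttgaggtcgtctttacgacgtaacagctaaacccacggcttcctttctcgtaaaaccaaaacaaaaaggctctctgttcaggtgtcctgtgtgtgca

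The Pdcd1 window held 2 matches to the NFAT core, which lie end to end near the start. The Ctla4 window held 1 match to the same core, so a gene that rose and a gene that fell both carried it, as did 55.6% of the 32851 windows of this length in the table. The Havcr2 window held 1 AP-1 match, found in 6.75% of all windows. Among the other members in the table, the Cd274 window held 1 NFAT core match, the Btla window neither motif, and the 2 windows of Cd160 none and 1 NFAT core match. These matches are descriptions of letters and not of binding. Lag3 and Tox were not among the 6 matched members.

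The values are log2 RMA levels, in which 1 unit is a doubling of signal, and they were used as the authors deposited them. Column medians spanned 5.84 to 5.89 and lower quartiles 4.57 to 4.68; precision is limited by how few arrays each group has. T cell markers had mean levels of 11.89 to 12.06 in naive and 11.08 to 11.26 in activated arrays. The deleted gene separated the genotypes: Crbn (probe set 1423095_s_at) was lower in knockout cells by 2.19-fold in naive and 1.87-fold in activated cells (limma adjusted p = 9.3e-05 and 0.0038). All 3 Crbn probe sets passed in naive cells and 2 of 3 in activated cells, the third having a limma adjusted p of 0.069. Brightest probe sets of 22 genes of other tissues had means over all arrays between 3.56 and 7.22. Where a member lies inside that range, signal above background was not shown and the size of its change is uncertain. In bulk RNA, fewer cells of a type and less RNA per cell cannot be told apart.

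Activation of wild-type cells asked which of these genes respond within 12 hours of stimulation. PD-1, its ligand PD-L1, LAG-3 and TIM-3 transcripts were higher and CTLA-4 and TOX transcripts lower, each by every probe set of the gene. BTLA and CD160 transcripts rose by smaller amounts. With Benjamini-Hochberg adjustment in limma and a threshold of 0.05, 12 of the 13 probe sets passed (8 up and 4 down), where 33.9% of all 45037 probe sets tested passed, 16.6% higher and 17.3% lower. By the brightest probe set of each gene, 6 genes rose and 2 fell of 8, beside 39.6% of 18193 genes that passed. The arrays of the states did not overlap for the same 12, beside 52.6% of all probe sets. The median difference of the 13 probe sets was 0.44 log2 against 0.05 over all probe sets.

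**Figure D1:**
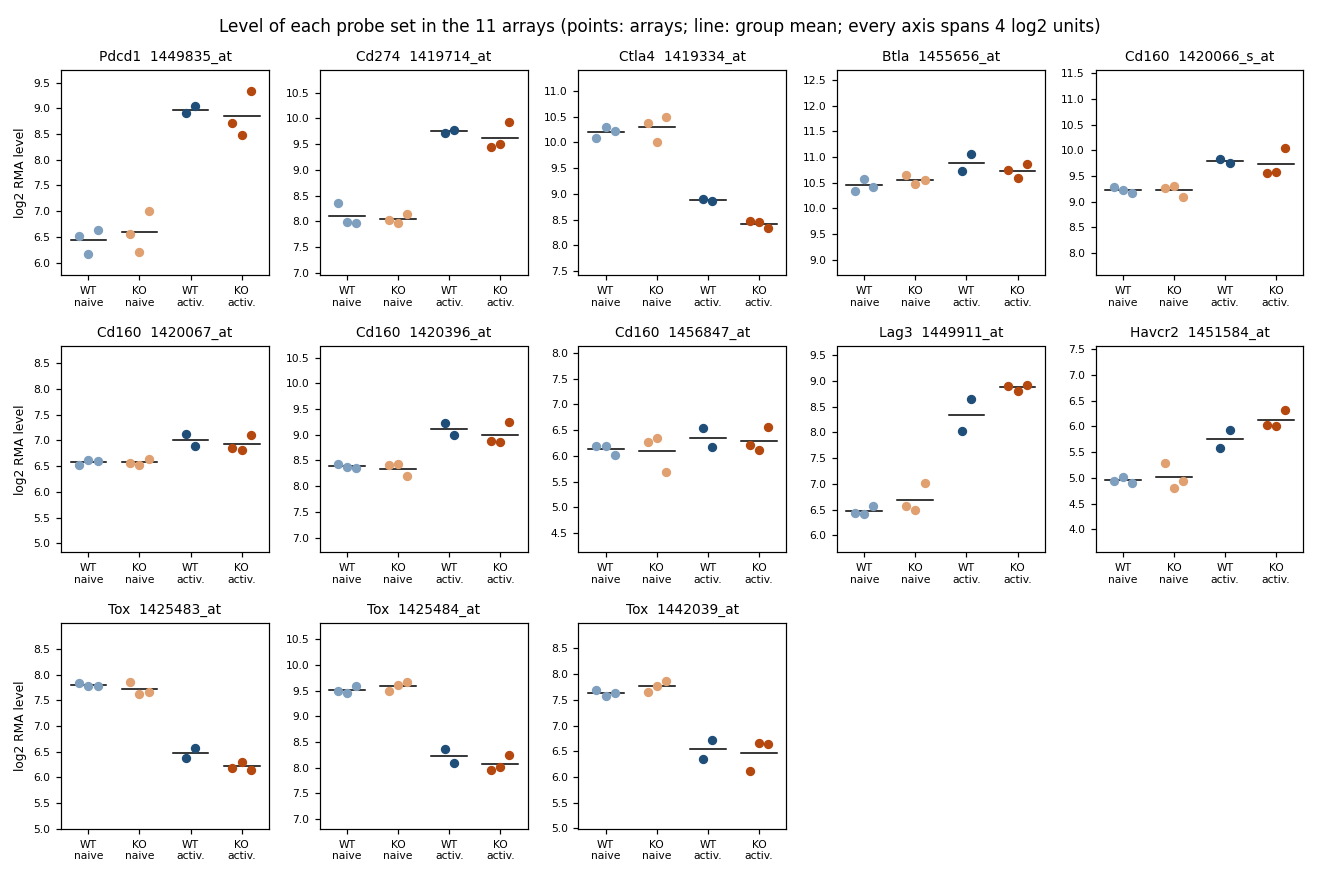
Log2 RMA level (vertical axes, each spanning 4 units) of the 13 probe sets in the 11 arrays, by group (WT wild type, KO knockout; points are arrays and lines are group means). The activated arrays of both genotypes lie above the naive ones for Pdcd1, Cd274, Lag3 and Havcr2 and below them for Ctla4 and the 3 Tox probe sets.

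Pdcd1, the gene of PD-1, stood at 6.51, 6.16 and 6.63 in wild-type naive arrays and at 8.91 and 9.04 in wild-type activated arrays. In knockout cells it stood at 6.55, 6.21 and 7.01 when naive and at 8.71, 8.48 and 9.34 when activated. All 5 activated arrays therefore lay above all 6 naive ones, and the spread within groups was widest in knockout cells. Pdcd1 rose by 2.54 log2 (SE 0.24) in wild-type cells, which is 5.81-fold with a 95% interval of 4.03 to 8.38 (limma adjusted p = 2.6e-06). It had the rank 60 from the top among 45037 probe sets. In knockout cells the rise was 2.25 log2 (SE 0.22), or 4.76-fold (limma adjusted p = 1.6e-06). The naive levels of Pdcd1 lie within the range of the genes of other tissues. Fam174a, its measured annotated neighbour, fell by 0.38 log2 in wild-type and 0.42 log2 in knockout cells (limma adjusted p = 0.0014 and 0.00019).

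Cd274, the gene of the ligand PD-L1, rose along with the receptor. Its wild-type naive arrays gave 8.36, 7.99 and 7.97, and its wild-type activated arrays 9.72 and 9.78. Knockout naive arrays gave 8.02, 7.97 and 8.14, and knockout activated arrays 9.45, 9.51 and 9.93, again with no overlap between the states. The rise was 1.64 log2 (SE 0.15), or 3.12-fold, in wild-type cells and 1.59 log2 (SE 0.13), or 3.00-fold, in knockout cells (limma adjusted p = 1.3e-06 and 3.3e-07). Pdcd1lg2, which encodes the second PD-1 ligand PD-L2 and is the annotated neighbour of Cd274, rose by 2.83 log2 in wild-type and 2.69 log2 in knockout cells (limma adjusted p = 2.6e-09 and 6.5e-10). Plgrkt, the neighbour on the other side, taken for its position, fell by 0.90 and 1.05 log2 (limma adjusted p = 0.000105 and 6.05e-06).

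Ctla4 moved the opposite way. Its levels in wild-type cells were 10.09, 10.31 and 10.22 when naive and 8.91 and 8.86 when activated, and in knockout cells they were 10.37, 10 and 10.50 and then 8.47, 8.46 and 8.33. Every activated array was below every naive one by more than 1 log2 unit. Ctla4 fell by 1.33 log2 (SE 0.13), 2.51-fold, in wild-type cells and by 1.87 log2 (SE 0.11), 3.66-fold, in knockout cells (limma adjusted p = 2.3e-06 and 2.0e-08). The genes on either side of it encode the activating receptors CD28 and ICOS: Icos rose by 1.00 log2 in wild-type and 0.81 log2 in knockout cells (limma adjusted p = 1.8e-06 and 2.6e-06), whereas Cd28 had differences of 0.02 and -0.18 log2 that did not pass.

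Beside the fall of Ctla4, the markers of regulatory T cells, which hold much of the CTLA-4 of resting animals, were divided. Of 6 measured markers 1 rose and 2 fell in wild-type activation, and 1 rose and 3 fell in knockout activation. Foxp3, their defining factor, had differences of -0.14 and -0.32 log2 that did not pass (limma adjusted p = 0.52 and 0.085) at levels within the range of the genes of other tissues, while Itgae fell by 2.30 log2 in wild-type cells and fell by 2.64 log2 in knockout cells, and Il2ra, also induced on conventional T cells, rose by 2.90 and 3.37 log2. In wild-type cells Ikzf2 was the other marker that fell, by 1.04 log2 (limma adjusted p = 7.3e-06). Nrp1 and Gpr83 had wild-type differences of -0.07 and -0.23 log2 that did not pass. The mean level of the list lay between 8.66 and 8.86 in wild-type naive, 8.56 and 8.64 in wild-type activated, 8.68 and 8.93 in knockout naive and 8.50 and 8.73 in knockout activated arrays. The part of these cells in the fall of Ctla4 was not tested.

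Btla and Cd160, whose products share the ligand HVEM, had the smallest differences of the 8 genes by brightest probe set. Btla had 10.34, 10.58 and 10.42 in wild-type naive arrays against 10.72 and 11.05 in activated ones, and 10.64, 10.47 and 10.55 in knockout naive arrays against 10.74, 10.58 and 10.87. The states were separate in wild-type cells and overlapped in knockout cells. The rise in wild-type cells was 0.44 log2 (SE 0.12, limma adjusted p = 0.010), but 0.27 log2 (limma adjusted p = 0.15) once wild-type activated replicate 2 was omitted. In knockout cells the difference was 0.18 log2 with a 95% interval of -0.05 to 0.40 (limma adjusted p = 0.22). Tnfrsf14, the HVEM gene, had differences of -0.14 and -0.04 log2 that did not pass (limma adjusted p = 0.38 and 0.83), at levels within the range of the genes of other tissues.

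Cd160 was measured by 4 probe sets, and 3 of them rose in both genotypes. Probe set 1420066_s_at stood at 9.28, 9.23 and 9.17 in wild-type naive, 9.84 and 9.75 in wild-type activated, 9.27, 9.31 and 9.10 in knockout naive and 9.57, 9.57 and 10.04 in knockout activated arrays. It rose by 0.57 log2 (SE 0.13) in wild-type and 0.50 log2 (SE 0.11) in knockout cells (limma adjusted p = 0.0033 and 0.0031). Probe set 1420396_at rose by 0.73 and 0.65 log2 and probe set 1420067_at by 0.43 and 0.35 log2 in the same order, with no overlap between states. The rise of 1420067_at in wild-type cells was 0.30 log2 (limma adjusted p = 0.088) once wild-type activated replicate 1 was omitted. The fourth, 1456847_at, stood at 6.19, 6.19 and 6.01 in wild-type naive, 6.53 and 6.17 in wild-type activated, 6.27, 6.35 and 5.69 in knockout naive and 6.21, 6.11 and 6.56 in knockout activated arrays. It had differences of 0.22 and 0.19 log2 with limma adjusted p-values of 0.41 and 0.44, and its arrays overlapped. All 4 had the same sign in both genotypes, over a range of 0.22 to 0.73 log2 in wild-type cells. Without knockout naive replicate 3, however, 1456847_at had -0.02 log2 in knockout cells. Probe sets 1420067_at and 1456847_at lay within the range of the genes of other tissues, with means over all arrays of 6.75 and 6.21.

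Lag3, whose product is related to CD4 and binds MHC class II, rose in both genotypes. Wild-type naive arrays gave 6.43, 6.42 and 6.57 and wild-type activated arrays 8.03 and 8.64, while knockout naive arrays gave 6.57, 6.49 and 7.03 and knockout activated arrays 8.90, 8.80 and 8.93. Within each genotype the states were more than 1 log2 unit apart, and the knockout activated arrays were the closest to each other. Lag3 rose by 1.87 log2 (SE 0.17), 3.64-fold, in wild-type cells and by 2.18 log2 (SE 0.15), 4.54-fold, in knockout cells (limma adjusted p = 1.8e-06 and 8.1e-08). Cd4, its annotated neighbour, fell by 1.07 and 1.10 log2 (limma adjusted p = 2.2e-06 and 3.2e-07), while Ptms, the neighbour on the other side, had differences of 0.01 and -0.06 log2 that did not pass (limma adjusted p = 0.93 and 0.63). Naive Lag3 levels lie within the range of the genes of other tissues.

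Havcr2, the gene of TIM-3, was the dimmest member. It stood at 4.95, 5.02 and 4.90 in wild-type naive, 5.57 and 5.92 in wild-type activated, 5.29, 4.80 and 4.94 in knockout naive and 6.04, 6.01 and 6.31 in knockout activated arrays. None of the 11 values was at or below the lower quartile of its array, but all lay within the range of the genes of other tissues. The rise was 0.79 log2 (SE 0.15) in wild-type and 1.11 log2 (SE 0.13) in knockout cells (limma adjusted p = 0.000704 and 1.0e-05). Med7, an annotated neighbour that encodes a Mediator subunit, rose by 1.04 and 1.38 log2 (limma adjusted p = 0.000132 and 2.4e-06). Gm12169, the neighbour on the other side, rose by 0.27 and 0.30 log2 (limma adjusted p = 0.036 and 0.0092). Lgals9, the gene of the TIM-3 ligand galectin-9, fell by 1.25 and 1.13 log2 (limma adjusted p = 0.000191 and 0.000122).

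Tox fell by all 3 of its probe sets in both genotypes. The brightest, 1425484_at, stood at 9.48, 9.46 and 9.59 in wild-type naive, 8.36 and 8.09 in wild-type activated, 9.48, 9.60 and 9.66 in knockout naive and 7.96, 8.01 and 8.24 in knockout activated arrays. The states were separate by more than 1 log2 unit in both genotypes. It fell by 1.28 log2 (SE 0.11), 2.43-fold, in wild-type and had a difference of -1.52 log2 (SE 0.10), 2.86-fold lower, in knockout cells (limma adjusted p = 8.7e-07 and 3.6e-08). Probe set 1425483_at stood at 7.83, 7.78 and 7.78 in wild-type naive, 6.38 and 6.57 in wild-type activated, 7.85, 7.63 and 7.66 in knockout naive and 6.19, 6.31 and 6.15 in knockout activated arrays. Its activated knockout arrays were all below the activated wild-type ones. Probe set 1425483_at fell by 1.33 and 1.5 log2 and probe set 1442039_at by 1.09 and 1.29 log2. The wild-type differences of the 3 probe sets spanned 0.23 log2, beside a median SE of 0.11. Nsmaf, an annotated neighbour of Tox, fell by 0.79 log2 in both genotypes (limma adjusted p = 4.4e-06 and 8.9e-07). Car8, the neighbour on the other side, had differences of 0.20 and 0.05 log2 that did not pass (limma adjusted p = 0.20 and 0.74). Levels of probe sets 1425483_at and 1442039_at in activated cells, 6.11 to 6.72, lie within the range of the genes of other tissues.

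**Figure D2:**
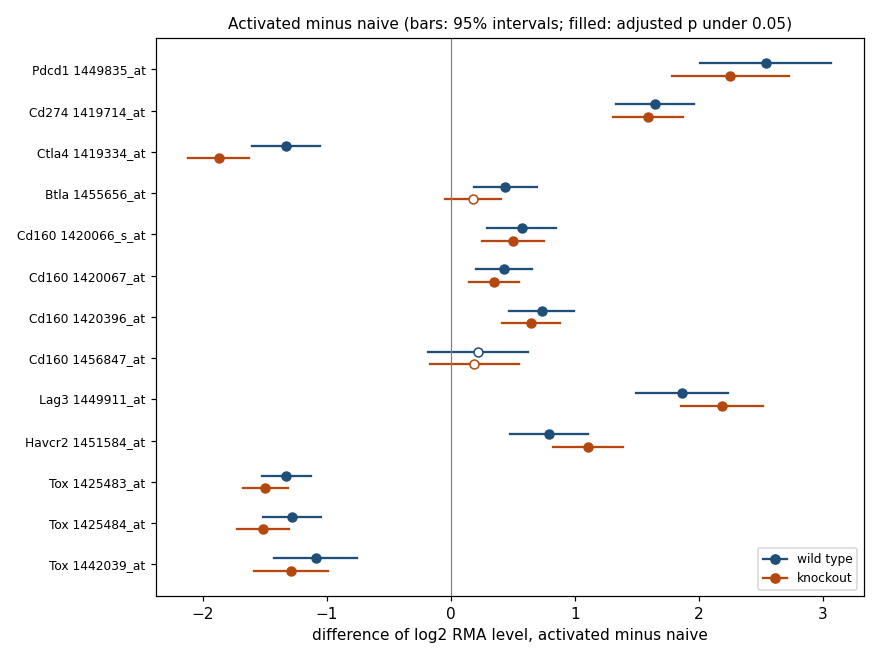
Difference of log2 RMA level, activated minus naive (horizontal axis), for each probe set in wild-type and knockout cells; bars are 95% intervals and filled points have a limma adjusted p under 0.05. Pdcd1 (2.54 and 2.25) and Lag3 (1.87 and 2.18) had the highest rises of the 13, and Ctla4 (-1.33 and -1.87) and the Tox probe sets lie on the other side of 0.

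The same contrast in knockout cells, which asked how these genes respond without cereblon, had 11 of the 13 probe sets past the threshold, 7 higher and 4 lower. Over all probe sets 37.5% passed, 18.8% higher and 18.7% lower. Arrays did not overlap for the same 11, beside 47.4% of all. Btla was the gene that passed in wild-type but not in knockout cells, and the test of that difference is the interaction given below. By the brightest probe set of a gene 5 genes rose and 2 fell of 8, beside 42.1% of all genes that passed. Knockout activated replicate 3 was the highest of its group in 10 of the 13 probe sets, among them Pdcd1, Cd274 and all 4 of Cd160, while it was the lowest for Ctla4 and Tox probe set 1425483_at. Both activation contrasts and both genotype contrasts use the same 4 groups, so they share arrays.

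Around the members, 5 lists of related genes were counted, and each count reads against the 39.6% of all genes that passed in wild-type and the 42.1% that passed in knockout activation. Of the inhibitory receptors outside the 8, most had a lower signal after activation. Of 8 measured genes of this list 5 fell and 1 rose in wild-type cells and 6 fell and 0 rose in knockout cells, with medians of -0.83 and -1.11 log2 against 0.06 and -0.03 over all genes. Lair1, a collagen receptor gene, fell by 1.47 and 1.5 log2. Mean levels of Lair1, Cd200r1 and Cd244a in both states lie within the range of the genes of other tissues, as do activated levels of Klrg1. The sizes of these changes are therefore uncertain. Cd96, whose product binds the nectin-like CD155, fell by 1.37 and 1.58 log2, and Klrg1, a marker of terminally differentiated effector cells, by 1.27 and 1.51 log2.

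Among 11 measured ligands and partners 2 rose and 3 fell in each genotype (median -0.08 and -0.05 log2), a share near that of all genes. Besides Pdcd1lg2, Cd200 rose by 1.83 and 2.08 log2 (limma adjusted p = 8.0e-08 and 4.3e-09). Its product engages an inhibitory receptor of myeloid cells, and the gene is an annotated neighbour of Btla. Atg3, on the other side of Btla, had differences of -0.15 and -0.075 log2 that did not pass (limma adjusted p = 0.20 and 0.52). Cd86, a ligand of CTLA-4, fell by 1.00 and 0.51 log2 (limma adjusted p = 1.6e-05 and 0.0014), and Cd80, the other one, had differences of 0.11 and -0.01 log2 that did not pass. Cd80 in all groups, Cd86 in wild-type activated cells and Pdcd1lg2 in naive cells had mean levels within the range of the genes of other tissues. Activating counterparts had 4 of 8 genes higher and 2 lower in wild-type and 4 higher and 3 lower in knockout cells. The TNF receptor family genes Tnfrsf9 (4-1BB) and Tnfrsf4 (OX40) rose by 2.98 and 1.74 log2 in wild-type cells, while Cd2 fell by 1.26 log2.

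Genes of the phosphatases and adaptors that work below these receptors were mostly lower. Of 13 measured genes 8 fell and 1 rose in wild-type and 10 fell and 2 rose in knockout cells (median -0.65 log2 in both). Dgka, a diacylglycerol kinase that dampens antigen receptor signals, fell by 1.97 and 2.59 log2, and Sh2d1a, the adaptor SAP, by 1.89 and 1.99 log2. Inpp5d, the lipid phosphatase SHIP-1, fell by 1.05 and 1.16 log2. The phosphatase genes Ptpn6 (SHP-1) and Ptpn11 (SHP-2), which PD-1 and BTLA can recruit, had wild-type differences of -0.21 and 0.21 log2 that did not pass and passed in knockout cells with -0.28 and 0.32 log2; whether they differ between genotypes was not shown, as no probe set passed the interaction.

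The relatives of TOX and other factors linked to exhaustion moved both ways. Of 16 measured genes 6 rose and 5 fell in wild-type and 7 rose and 6 fell in knockout cells (median 0.16 and 0.03 log2). Irf4, a factor induced by antigen receptor signals, rose by 4.07 and 4.24 log2, and the orphan nuclear receptor genes Nr4a3 and Nr4a2 rose by 3.09 and 1.65 log2 in wild-type cells. Among the relatives of Tox, Tox2 had a wild-type difference of -0.38 log2 that did not pass and fell by 0.67 log2 in knockout cells, whereas Tox4 rose by 0.45 and 0.49 log2. Tox and Tox4 thus moved in opposite directions.

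**Figure D3:**
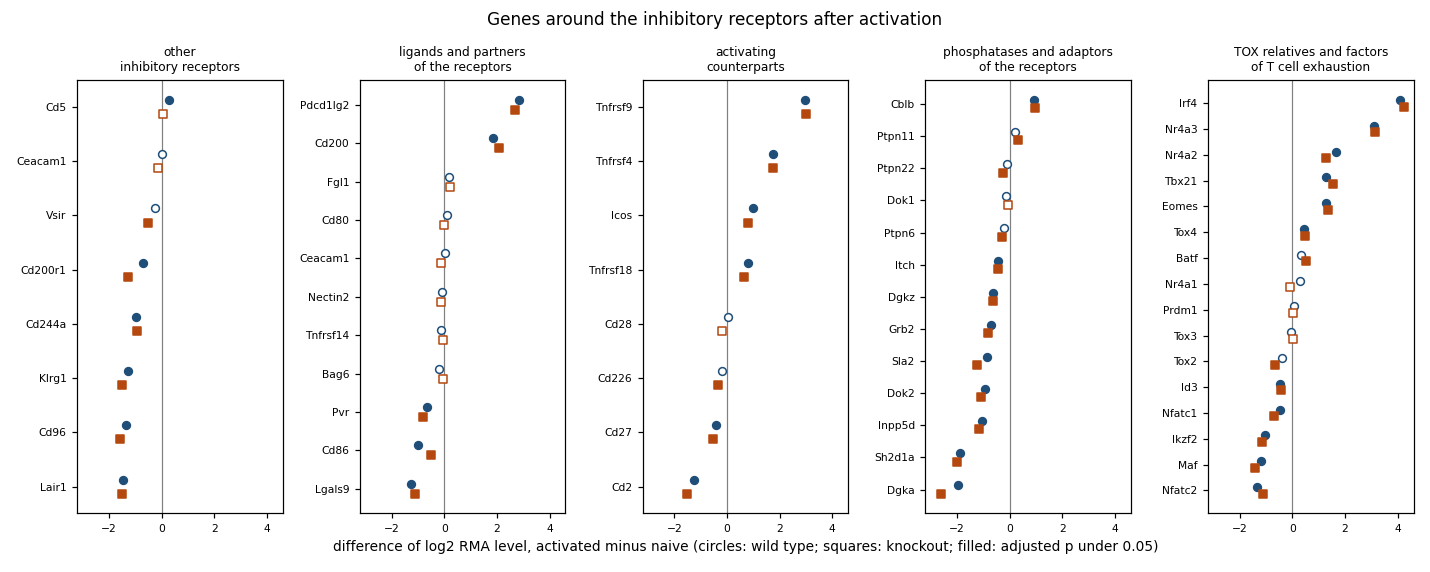
Difference of log2 RMA level, activated minus naive (horizontal axes), for the genes of the 5 surrounding lists; circles are wild-type and squares knockout cells, and filled symbols have a limma adjusted p under 0.05. The other inhibitory receptors lie mostly left of 0 (5 of 8 fell in wild-type cells), while Pdcd1lg2, Tnfrsf9 and Irf4 head the lists in which they stand. Several of the other inhibitory receptors had levels within the range of the genes of other tissues.

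Markers of T cells and of other cells were counted in the same way, beside the same 39.6% and 42.1% of all genes. T cell markers had 6 of 7 genes lower in both genotypes and 1 higher in wild-type cells, both CD8 markers fell, and 2 of 3 CD4 markers fell. Macrophage and monocyte markers had 8 of 12 lower in both genotypes, B cell markers 4 and 5 of 10, NK markers 3 and 4 of 5 with 1 higher in each, and erythroid markers 4 and 1 of 6 in wild-type and knockout cells. The NK marker that rose, Eomes, was also counted among the factors linked to exhaustion. Cd5, the T cell marker that rose, is also the gene that rose among the other inhibitory receptors. Cd2, Ceacam1 and Ikzf2 likewise stand in more than 1 list, so the lists are not separate counts. Neutrophil markers had 2 of 7 lower in both. The mean level of the macrophage and monocyte list was 5.55 to 6.51 over all arrays, within the range of the genes of other tissues. Some of its genes lay above that range in naive cells, and the sizes of its falls are uncertain. The shares for B cell and neutrophil markers, and for erythroid markers in knockout cells, were near or below those of all genes that passed in either direction. Counting falls alone, 3712 of 18193 genes fell in wild-type and 3979 in knockout activation, and the share of B cell markers that fell was higher than that. Dendritic cell markers had 2 of 7 higher and 2 lower, and their mean level lay between 6.0 and 6.13 over the 6 naive arrays and between 6.27 and 6.54 over the 5 activated ones. Their median difference was 0.01 log2 in wild-type and -0.14 log2 in knockout cells, so the rise of the mean was not shared by most of these markers. The part of these cells in the changes of the members was not tested.

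The genotype comparison in naive cells asked whether resting cells without cereblon differ in these genes. None of the 13 probe sets passed in limma, beside 0.158% of all probe sets, and 0 of 13 had an unadjusted p under 0.05, beside 14.2%. The differences, knockout minus wild type, ranged from -0.09 log2 for Tox probe set 1425483_at to 0.22 log2 for Lag3, and the arrays of the genotypes overlapped for all 13, while they did not for 19.2% of all probe sets. The 95% intervals of the signal differences leave room for modest changes: that of Lag3 ran from -0.11 to 0.55 log2, that of Pdcd1 from -0.31 to 0.63 log2 and that of Ctla4 from -0.16 to 0.33 log2. For the brightest Tox probe set it ran from -0.14 to 0.28 log2. A doubling in naive knockout cells lies outside the intervals of Ctla4 and this Tox probe set. For Pdcd1 and Lag3, whose naive signal was not shown to be above background, the intervals describe the signal and set no limit on the transcript. Among markers of other cells in naive arrays, 1 of 5 NK markers passed, Klra8. It was higher in knockout cells by 0.94 log2 at levels within the range of the genes of other tissues. B cell markers had mean levels of 7.10 to 7.32 in wild-type and 7.19 to 8.12 in knockout arrays. The 8.12 was that of knockout replicate 1, while replicates 2 and 3 stood at 7.19 and 7.47. The list mean hides a wide spread of its genes. In naive cells they ran from Ebf1 (4.29 in wild-type and 4.32 in knockout cells) to Ighm (13.50 and 13.63). Erythroid markers had mean levels of 7.36 to 8.66 in wild-type and 6.32 to 7.57 in knockout arrays. Neutrophil markers had mean levels of 5.88 to 6.18 in wild-type and 5.72 to 7.37 in knockout naive arrays. The 7.37 was again that of knockout replicate 1. The part of these cells was not tested.

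In activated cells the genotype comparison again had 0 of 13 probe sets past the threshold in limma, beside 0.0733% of all probe sets, and 4 of 13 at an unadjusted p under 0.05, beside 8.23%. Those 4 were also the probe sets whose genotypes did not overlap, beside 21.5% of all probe sets. Lag3 was higher in all 3 knockout arrays (8.90, 8.80 and 8.93) than in both wild-type arrays (8.03 and 8.64), by 0.54 log2 with a 95% interval of 0.17 to 0.91 (limma adjusted p = 0.37). Without wild-type activated replicate 1, the lower of the 2 wild-type arrays, that difference was 0.23 log2. Havcr2 was higher by 0.37 log2 (0.06 to 0.68, limma adjusted p = 0.52), and by 0.19 log2 without the same array. Ctla4 was lower by a difference of -0.46 log2 (-0.73 to -0.19, limma adjusted p = 0.27) and kept a value between -0.49 and -0.42 log2 over all alternatives. Tox probe set 1425483_at was lower by a difference of -0.26 log2 (-0.46 to -0.06, limma adjusted p = 0.46), where the other 2 Tox probe sets gave -0.16 and -0.07 log2 with overlapping arrays. The difference of 1425483_at moved to -0.17 log2 without wild-type activated replicate 2 and to -0.35 log2 without replicate 1 of that group. These 4 differences fail the correction over all probe sets.

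**Figure D4:**
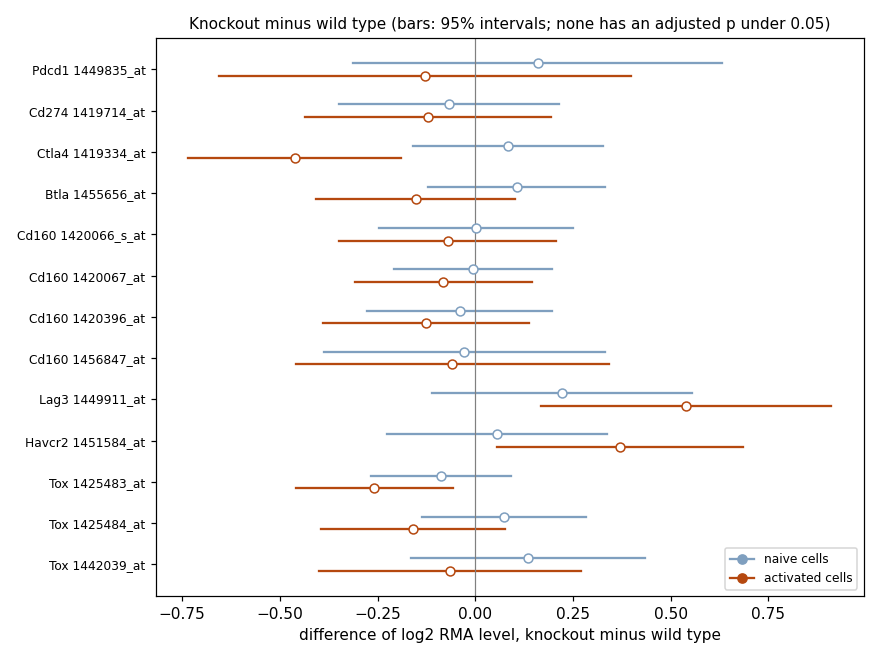
Difference of log2 RMA level, knockout minus wild type (horizontal axis), for each probe set in naive and activated cells; bars are 95% intervals from limma. None has an adjusted p under 0.05, and in activated cells the intervals of Ctla4, Lag3, Havcr2 and Tox 1425483_at do not include 0.

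The remaining members were closer between activated genotypes. Pdcd1 differed by -0.13 log2 (95% interval -0.66 to 0.40), Cd274 by -0.12 log2 (-0.44 to 0.19), Btla by -0.15 log2 (-0.41 to 0.10) and the brightest Cd160 probe set by -0.07 log2 (-0.35 to 0.21). All 4 Cd160 probe sets had a negative difference with overlapping arrays, but 3 of them turned positive when 1 array was left out, reaching 0.01 log2 (1420066_s_at), 0.04 log2 (1420067_at) and 0.12 log2 (1456847_at). Beside these values, the mean level of B cell markers lay between 6.41 and 6.87 in wild-type and between 6.68 and 7.37 in knockout activated arrays. The 7.37 was that of replicate 1, while knockout replicates 2 and 3 stood at 6.68 and 6.76. Single B cell markers ran from Ebf1 (4.26 in wild-type and 4.07 in knockout activated cells) to Ighm (11.93 and 12.27). In the same order of genotypes, the mean of dendritic cell markers lay between 6.27 and 6.34 and between 6.49 and 6.54. That of NK cell markers lay between 7.11 and 7.19 and between 7.23 and 7.36. Of the 7 dendritic cell markers 1, the chemokine gene Ccl17, passed, being higher by 0.82 log2 at levels within the range of the genes of other tissues. Ccl22, another chemokine gene, was higher by 0.70 log2 without passing (limma adjusted p = 0.14). The median difference of the 7 was -0.01 log2, so the higher mean of the list was not shared by most of its genes. The part of these cells in the genotype differences was not tested.

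The interaction asked directly whether the response to activation differs between genotypes. None of the 13 probe sets passed in limma, as none of all probe sets did (0%), and 1 of 13 had an unadjusted p under 0.05, beside 14.0%. That one was Ctla4, whose fall was larger in knockout cells by a difference of -0.55 log2 (95% interval -0.91 to -0.18, limma adjusted p = 0.24). Over all alternatives the Ctla4 value lay between -0.69 and -0.43 log2. Lag3 (0.32 log2, -0.18 to 0.82) and Havcr2 (0.31 log2, -0.11 to 0.73) had positive differences of response, and Btla (-0.26 log2, -0.60 to 0.08) and Pdcd1 (-0.29 log2, -1.0 to 0.42) negative ones, with every interval including 0. These 4 values moved with single arrays: without wild-type activated replicate 1 Lag3 had 0.01 log2 and Havcr2 0.14 log2, without wild-type activated replicate 2 Btla had -0.09 log2, and without knockout naive replicate 3 Pdcd1 had -0.08 log2. Leaving out other arrays, they reached 0.63, 0.49, -0.43 and -0.54 log2 in the same order of genes. The 3 Tox probe sets had differences between -0.23 and -0.17 log2, none past the threshold. For Cd274 the difference was -0.06 log2 (-0.48 to 0.37).

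The genes whose levels followed each member most closely over the 11 arrays were taken among 9096 or 9097 genes of at least median brightness. These correlations join 2 states and therefore mainly order genes by the naive to activated contrast. For Pdcd1 they were Gfod1 and Chst2 (Pearson r = 0.988 each), for Lag3 Cd83 (0.996) and the cell cycle inhibitor gene Cdkn1a (0.995), and for Cd274 Tm9sf3 (0.995) and Slamf1 (0.993), a receptor gene of activated lymphocytes. Havcr2 was followed by Slc35a3 (0.987) and Agps (0.981), and Cd160 by Zfp330 (0.967) and Extl3 (0.962). Among the members that fell, Ctla4 was matched by Dhx40 and Tut7 (0.993 each) and Tox by Retreg1 and Smad7 (0.994 each), the latter an inhibitor of TGF-beta signalling. Btla had the loosest matches, Cry2 (0.957) and Zfp408 (0.929).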

How the data were processed

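RNA of 11 samples was hybridised to one-colour Affymetrix mouse arrays. Per the submitters' processing notes, GCOS, RMA and Partek were used; no versions are stated. The authors deposited log2 RMA values, which ranged from 2.32 to 15.03 with 0 missing. The 64 control probe sets were left out. Of 45101 probe sets 34958 carried 1 gene symbol in the platform annotation, 932 several and 9211 none; symbols were checked by Entrez number against a gene table of GRCm38.p6, and 0 changed.

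Differences were fitted with limma 3.58.1 in R 4.3.3 to all 45037 remaining probe sets (4 group means over 11 arrays, moderated variances with 5.85 prior and 7 residual degrees of freedom), with Benjamini-Hochberg adjustment over all of them for each of 5 comparisons. Adjusted p under 0.05 is called passing, and intervals cover 95%. Members of the 5 surrounding and 10 marker lists were represented by the brightest probe set and named by a fixed rule: up to 3 of the largest wild-type activation changes per list. Outside that rule, Fam174a, Plgrkt, Icos, Cd28, Cd4, Ptms, Med7, Gm12169, Atg3, Nsmaf and Car8 were named for their position, after their values were seen. Cd86, Cd80, Tnfrsf14, Ptpn6, Ptpn11, Tox2, Tox4, Foxp3, Itgae, Il2ra, Ikzf2, Nrp1, Gpr83 and Ccl22 were named for their role, also after their values were seen. Ccl17 and Klra8 are markers that passed a genotype comparison. The members, lists and tests were chosen with earlier results of these data known. P-values measure the spread between these samples. The fit was tested on simulated data. Figures used Python 3.11.15, pandas 2.3.3 and matplotlib 3.10.9.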

Additional observations from a re-analysis of the deposited data

How the results depend on the processing

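The alternatives were the brightest probe set of a gene, the mean of its probe sets, probe sets above the median level (12 of the 13 remained, Havcr2 being dimmer), a variance trend with a robust prior, a fit to only the compared arrays, weights for array quality, median centring, a repeated quantile normalization, the replicate number as a block, and leaving out each array (without 1 of the wild-type activated arrays the other is assumed to vary like the other groups). Under them the count of the 13 probe sets past the threshold stayed within 1.5 times its value in all 5 comparisons: leaving out 1 array it ranged from 11 to 12 in wild-type activation, stayed 11 in knockout activation and was 0 in both genotype comparisons and the interaction. By the brightest probe set of a gene these counts were 7 to 8, 7, 0, 0 and 0. No difference past the threshold changed sign, and the 2 calls lost were those of Btla and Cd160 (1420067_at) given in the report. Across all probe sets the genotype calls moved more: the 71 in naive cells were 16 with only the compared arrays, 27 with brightest probe sets, 23 with means per gene, 45 above the median level, 505 with array weights, 384 with the replicate block and between 23 and 525 leaving out 1 array (525 without wild-type naive replicate 3), and the 33 in activated cells were 6 with only the compared arrays, 11 with array weights or with brightest probe sets, 12 with means per gene and between 2 (without wild-type activated replicate 1) and 42 (without knockout activated replicate 2) leaving out 1 array. The interaction called 0 probe sets, 1 with a variance trend or array weights, 18 with the replicate block, 12 without wild-type activated replicate 2 and 10 without wild-type naive replicate 3, none of them a member. Same-numbered arrays had correlations of their deviations from the group means between -0.27 and 0.32, over 0.1 in 5 of 15 pairs, beside 5 of 30 pairs of other numbers. These pairs include pairs between genotypes. Between knockout naive and activated arrays, same numbers gave 0.25, 0.06 and 0.19 and other numbers -0.22 to 0.02. Between wild-type naive and activated arrays, same numbers gave -0.27 and -0.19. Whether numbers mark pairs in knockout cells is not settled, and the main fit used no pairs. With the replicate block the counts of members remained 12, 11, 0, 0 and 0. With the signal of naive Pdcd1 and Lag3, and of Havcr2 throughout, in the range of genes of other tissues, the sizes of their changes are limited by background. The cause of these shifts was not tested.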
